A study of Mus musculus with 6 samples.

Results

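Heat shock proteins and their partner chaperones were described in macrophages sorted from mouse tumours. The genes were taken by symbol from the deposited count table: every row whose symbol starts with Hspa, Hspb, Hspd, Hspe, Hsph, Hsp90, Dnaja, Dnajb or Dnajc, with Hsf1, Hsf2, Bag1 to Bag6 and the chaperonin subunits Cct2, Cct3, Cct4, Cct5, Cct6a, Cct7 and Cct8. The endoplasmic reticulum chaperones Hspa5, Hsp90b1, Dnajb9 and Dnajc3 and pseudogenes were left out. This gave 85 of 21878 rows. Of these, 74 had enough reads for the test, 4 had a count of 0 in all 6 libraries and 7 had too few reads. Since the choice was made by name, the set is not purely cytosolic. Hspa9, Hspd1, Hspe1, Dnaja3, Dnajc15, Dnajc19 and Dnajc30, among others, encode mitochondrial proteins. Dnajb11, Dnajb12, Dnajc1, Dnajc10, Dnajc14 and Hspa13, among others, encode proteins of the endoplasmic reticulum or its membrane.

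Chaperones bind unfolded stretches of other proteins and let them fold again or pass them on for degradation. Hsp70 proteins do this in cycles of ATP hydrolysis, which J-domain proteins (the Dnaja, Dnajb and Dnajc families) start and which nucleotide exchange factors (Hsp110 and Bag proteins) end. Hsp90 then finishes clients such as kinases and steroid receptors. Heat, oxidation and other protein damage free the transcription factor HSF1, which binds heat shock elements in promoters and switches on the inducible members. Macrophages also use these proteins in antigen handling and in survival under inflammatory stress.

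The study sequenced mRNA of tumour-associated macrophages, the macrophages that settle in a tumour, from mice that carried MC38, a mouse colon carcinoma line, for 14 days. The 3 KO libraries came from Trmt61a f/f mice with LysM-Cre, in which Cre is expressed from the Lyz2 locus in myeloid cells, and the 3 WT libraries from Trmt61a f/f mice without Cre, so that the floxed alleles are shared and the Cre is not. Trmt61a encodes the catalytic subunit of an enzyme that methylates adenosine in tRNA. The sorting gate and the sex and age of the mice are not given in the sources used here. Whether each replicate is a separate mouse is not stated in the labels. The p-values below therefore rest on differences among libraries, part of which may be technical.

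Libraries held 18839026 to 20313597 counts, and 14037 to 14184 genes had reads in each. Trmt61a had 41, 33 and 50 counts in the KO libraries, against 157, 138 and 148 in the WT libraries (log2 fold change -1.81, SE 0.197, edgeR adjusted p = 0.0426), so every library followed its label. All 12 macrophage markers looked for, among them Adgre1, Csf1r and the C1q genes, passed the filter, and they summed to 15440 to 17510 CPM in KO and 16250 to 17750 CPM in WT. CPM relate the counts of a gene to the library total after scaling by TMM factors.

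No member passed the test between KO and WT in either direction. The test was edgeR's quasi-likelihood test, adjusted over all 12136 genes tested, at an adjusted p under 0.05. Across all genes 0 were called higher in KO (0%) and 2 lower (0.0165%). DESeq2 called Hspa1a and Hspa1b higher in KO and no member lower, where it called 0.0659% of all genes higher and 0.157% lower. It gave no adjusted p for Dnaja4, Dnajc22, Dnajc28, Hspa1l, Hspa12a, Hspa12b, Hspb1 and Hspb6. Genes without one count as not called in these shares of the 12136 genes. At an unadjusted edgeR p under 0.05, 5 members were higher in KO, which is 6.76% of those tested, against 3.86% of all genes. These were Hspa1a, Hspa1b, Dnaja4, Dnajc5 and Hspbap1. Another 2, Hspa13 and Dnajc13, were lower, which is 2.7% against 3.06% of all genes. The coding sequences of Hspa1a and Hspa1b are near-identical, so these need not be separate cases among the 5. Voom with quality weights called 0 members in either direction, where it called 0.00824% of all genes higher and 0.0247% lower. In bulk RNA, fewer cells of a type and less RNA per cell cannot be told apart, here and in every result that follows.

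Most members lay close to no difference. Of the 74 log2 fold changes, 28 were positive and 46 negative, where 49.8% of all genes were positive and 50.2% negative. The median was -0.05, against -0.00088 over all genes tested. The 95% interval lay within 0.5 log2 units of 0 for 59 of the 74 members and within 1 log2 unit, a 2-fold change, for 68. Neither these interval counts nor the next count were taken over all genes, and they describe the members alone. In 11 members the log2 fold change was beyond 0.2 in either direction. These were Hspa1a, Hspa1b, Hspa1l, Hspa12b, Hspa13, Hsph1, Hspb1, Dnaja4, Dnajb1, Dnajc28 and Hspbap1, of which Dnajc28 was at 0.830 ± 0.267 CPM in KO and 0.588 ± 0.0583 CPM in WT (SD, n = 3 each; log2 fold change 0.50, SE 0.400). All 3 KO libraries lay above all 3 WT libraries in 7 members, which are the 5 named above with Dnajc14 and Dnajc18 and make 9.46% of those tested, against 6.11% of all genes. They lay below in 5 members (Dnaja3, Dnajb6, Dnajc8, Dnajc13 and Hspa13), 6.76% against 6.3%. The share below WT is close to that of all genes. Whether the share above WT differs from that of all genes was not tested. It counts Hspa1a and Hspa1b separately, though their coding sequences are near-identical. Several of the small differences changed sign with 1 library left out, and 48 of the 74 members kept their sign under all 16 other settings tried.

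**Figure D1:**
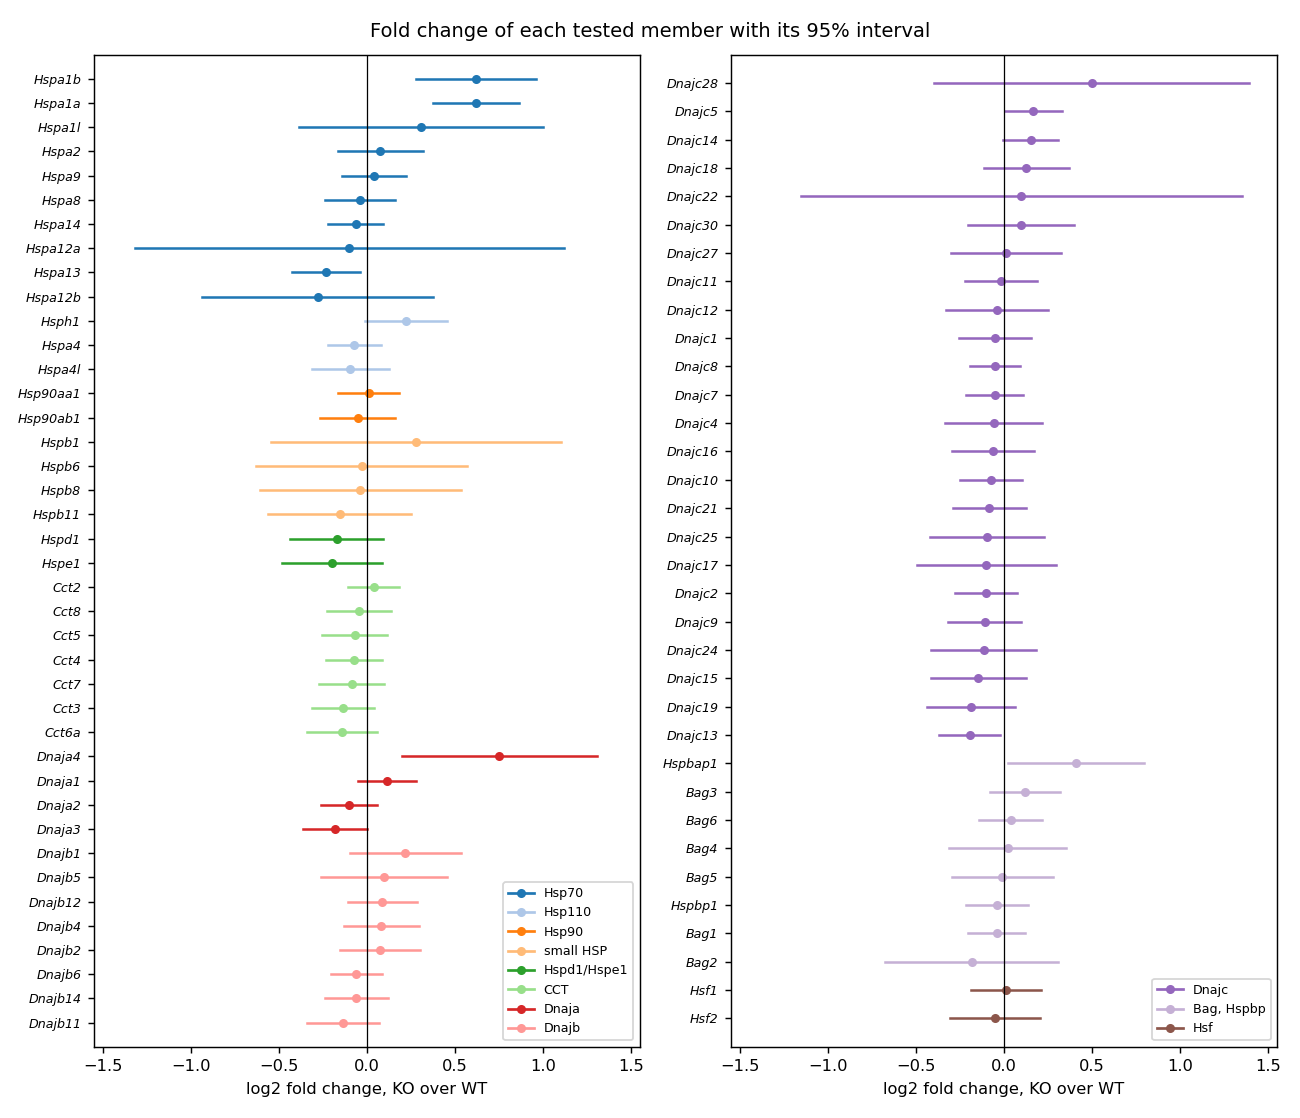
Log2 fold change (KO over WT) of the 74 tested members with its 95% interval from edgeR, grouped by class and ordered by size within a class. Hspa1a and Hspa1b sit at 0.62 with intervals clear of 0, Dnaja4 at 0.75 with a wider one, and most others have intervals that cross 0.

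Hspa1a and Hspa1b encode the inducible Hsp70 proteins, which cells make in quantity after heat or protein damage. Hspa1a (NCBI Gene 193740, chr17:34969190-34972156, minus strand, GRCm38) and Hspa1b (NCBI Gene 15511, chr17:34956436-34959238, minus strand) lie 9951 bases apart, and the coding part of each lies in 1 exon. Their coding sequences have 1923 and 1926 bases without the stop codon and are 99.43% identical, with 8 mismatches and 3 gap bases. Of all 100-base stretches of the Hspa1a transcript, 47.07% occur unchanged in that of Hspa1b, and 49.93% the other way round. How the authors treated reads that match both genes is not stated in the labels. The split of counts between the pair is therefore uncertain.

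The 250 bases before each start site, from RefSeq on GRCm38.p6 (chr17:34972157-34972406 and chr17:34959239-34959488, both minus strand), are shown because both genes had the same fold change. They differ at 3 positions. The capitals mark the only match in each to the 8-base heat shock element pattern, GAANNTTC or TTCNNGAA, and it ends 97 bases before the start.

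Hspa1a: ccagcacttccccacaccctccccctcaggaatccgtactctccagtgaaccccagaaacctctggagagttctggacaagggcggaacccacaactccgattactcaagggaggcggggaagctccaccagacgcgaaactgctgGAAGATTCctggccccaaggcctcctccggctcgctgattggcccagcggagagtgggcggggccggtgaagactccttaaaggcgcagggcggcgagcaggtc

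Hspa1b: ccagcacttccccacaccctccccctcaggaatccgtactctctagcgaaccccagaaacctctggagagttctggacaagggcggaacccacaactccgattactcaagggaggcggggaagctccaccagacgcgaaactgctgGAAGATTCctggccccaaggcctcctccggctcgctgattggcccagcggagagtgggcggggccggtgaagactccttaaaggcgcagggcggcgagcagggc

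Hspa1a was at 164, 160 and 152 CPM in the KO libraries, against 97.1, 123 and 89.7 CPM in the WT libraries. The KO values lay close together and all above WT, and WT replicate 2 was the nearest to them. Their means were 159 ± 6.39 CPM in KO and 103 ± 17.3 CPM in WT (SD, n = 3 each), a fold of 1.54. The log2 fold change was 0.62 (SE 0.110; adjusted p = 0.438 with edgeR and 0.000463 with DESeq2). By p it stood at rank 7 of the 12136 genes. Without WT replicate 2 it was 0.77 and passed edgeR too (adjusted p = 0.0457). Over all alternatives its adjusted p ran from 0.000463 to 0.999. The predicted gene Gm20481 overlaps exons of Hspa1a on the opposite strand, and the strand setting of the counting is not given in the sources used here.

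Hspa1b had 179, 148 and 193 CPM in the KO libraries, against 95.1, 137 and 105 CPM in the WT libraries. The groups did not overlap, and KO replicate 2 came near WT replicate 2. The log2 fold change was 0.62 (SE 0.148; adjusted p = 0.694 with edgeR and 0.0162 with DESeq2), between 173 ± 23.1 CPM in KO and 112 ± 22.1 CPM in WT (SD, n = 3 each). Without KO replicate 2 it was 0.72 and without WT replicate 2 it was 0.80. Over all alternatives its adjusted p ran from 0.0162 to 0.999.

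The counts of both genes were also added into 1 row, so that the split of counted shared reads no longer matters. Reads dropped for matching both genes, if any, stay missing from it. The log2 fold change of this row was again 0.62 (SE 0.118, adjusted p = 0.703 with edgeR and 0.000857 with DESeq2). The sums were 343, 308 and 345 CPM in the KO libraries, against 192, 260 and 195 CPM in the WT libraries. The Hspa1a share of the pair's counts was 47.98% ± 4.03 in KO and 47.93% ± 2.31 in WT (SD, n = 3 each). Hspa1l, a testis-enriched Hsp70 gene that lies 546 bases from Hspa1a on the other strand, was at 1.81 ± 0.320 CPM in KO and 1.46 ± 0.375 CPM in WT (SD, n = 3 each).

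**Figure D2:**
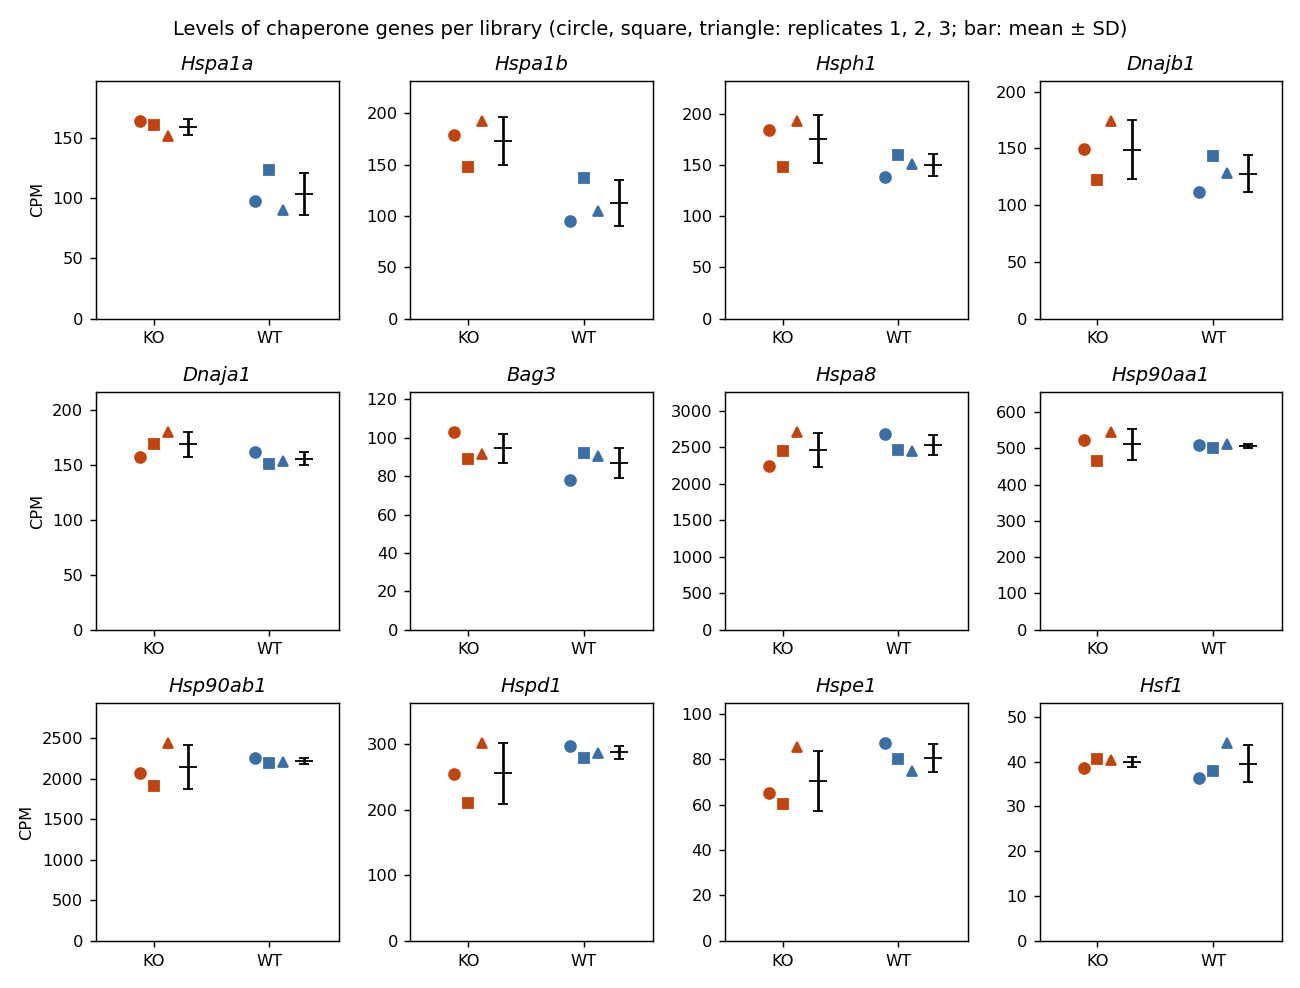
CPM of 12 chaperone genes in each library, KO on the left and WT on the right of each panel, with the mean ± SD of 3 libraries as a bar and the replicate number as the shape. For Hspa1a and Hspa1b all KO points lie above all WT points, and in the other 10 panels the groups overlap.

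Hspa8 encodes the constitutive Hsp70 of the cytosol, which also uncoats clathrin vesicles and serves chaperone-mediated autophagy. It was at 2241, 2444 and 2713 CPM in the KO libraries, against 2683, 2464 and 2445 CPM in the WT libraries. All WT values lay inside the KO range (log2 fold change -0.04, SE 0.0896, edgeR adjusted p = 0.937). Together the inducible pair made 18.6%, 15.8% and 16.0% of the RNA of Hspa1a, Hspa1b and Hspa8 in the KO libraries, against 9.66%, 13.6% and 10.6% in the WT libraries, after division by exon length. All 3 KO shares were above all 3 WT shares. Their size depends on the exon lengths used, such as 4301 bases for Hspa8.

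Among the other Hsp70 genes, Hspa9, the mitochondrial form that pulls proteins through the inner membrane, was at 454 ± 42.6 CPM in KO and 442 ± 11.1 CPM in WT (SD, n = 3 each; log2 fold change 0.04). Hspa13, whose product lacks the substrate-binding part of Hsp70, was at 47.9, 52.3 and 48.3 CPM in the KO libraries, against 64.4, 53.7 and 56.4 CPM in the WT libraries. Every KO value was below every WT value, the closest by little, and the difference did not pass (log2 fold change -0.23, SE 0.0865, edgeR adjusted p = 0.703). Hspa2, Hspa14, Hspa12a and Hspa12b had log2 fold changes of 0.08, -0.06, -0.10 and -0.28, and none passed. Of the 10 Hsp70 genes 5 were positive and 5 negative, with a median of 0.0012.

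Hsph1 encodes the inducible Hsp110, which exchanges nucleotide on Hsp70 and helps it to dissolve aggregates. It was at 184, 148 and 193 CPM in the KO libraries, against 139, 160 and 151 CPM in the WT libraries. KO replicate 2 lay among the WT values and the other KO libraries above them. The log2 fold change was 0.22 (SE 0.104; adjusted p = 0.717 with edgeR) and 0.33 without KO replicate 2. Hspa4 and Hspa4l, the constitutive relatives, had log2 fold changes of -0.07 and -0.09.

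The cytosolic Hsp90 genes showed no difference beyond their spread. Hsp90aa1, the inducible form, was at 522, 465 and 546 CPM in the KO libraries, against 509, 500 and 511 CPM in the WT libraries. All WT values lay inside the KO range (log2 fold change 0.01, SE 0.0773, edgeR adjusted p = 0.977). Hsp90ab1, the constitutive form, was at 2076, 1909 and 2443 CPM in the KO libraries, against 2259, 2199 and 2204 CPM in the WT libraries. Here too WT lay inside the KO range (log2 fold change -0.05, SE 0.0958, edgeR adjusted p = 0.915). Hsp90aa1 made 15.4% ± 0.788 of the pair's RNA in KO and 14.8% ± 0.188 in WT, per exon length (SD, n = 3 each).

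J-domain proteins of the Dnaja and Dnajb families bring clients to Hsp70. Dnajb1, the heat-inducible Hsp40, was at 149, 122 and 174 CPM in the KO libraries, against 111, 144 and 128 CPM in the WT libraries. The groups overlapped, with KO replicate 3 highest and WT replicate 1 lowest. Its log2 fold change was 0.22 (SE 0.138; adjusted p = 0.777 with edgeR), 0.34 without KO replicate 2 and 0.09 without KO replicate 3. Dnaja1, a farnesylated Hsp40 of the cytosol, was at 168 ± 11.5 CPM in KO and 155 ± 5.69 CPM in WT (SD, n = 3 each; log2 fold change 0.12, SE 0.0743, edgeR adjusted p = 0.779).

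Dnaja4 had the highest log2 fold change of the tested members, 0.75 (SE 0.249, edgeR adjusted p = 0.701), at a low level. It encodes a cytosolic relative of Dnaja1. Its counts were 61, 70 and 58 in the KO libraries, against 30, 40 and 44 in the WT libraries. No KO count was as low as a WT count. The means were 3.23 ± 0.412 CPM in KO and 1.91 ± 0.343 CPM in WT (SD, n = 3 each). Exons of Wdr61 overlap it on the opposite strand, and the strand setting of the counting is not given in the sources used here. Dnaja3, a mitochondrial J protein, was at 29.0 ± 0.868 CPM in KO and 32.8 ± 1.76 CPM in WT (SD, n = 3 each; log2 fold change -0.18, SE 0.0817, edgeR adjusted p = 0.713). Its exons overlap those of Vasn on the same strand and of Coro7 on the opposite strand.

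Of the 8 tested Dnajb genes 5 were positive and 3 negative, with a median of 0.08, and of the 4 Dnaja genes 2 went each way. Dnajb11, a J protein of the endoplasmic reticulum, and Dnajb12, which sits in its membrane, had log2 fold changes of -0.14 (SE 0.0915) and 0.09 (SE 0.0874). Dnajb6, which keeps polyglutamine proteins from aggregating, was at 94.2, 94.2 and 91.6 CPM in the KO libraries, against 95.6, 95.1 and 101 CPM in the WT libraries, a difference of -0.06 on the log2 scale. The groups did not overlap, yet the gap between them was small beside the levels.

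The Dnajc family is the most varied, since its members share little beyond the J domain. Of its 24 tested genes 7 were positive and 17 negative, with a median of -0.06. Dnajc13, an endosomal protein that acts with Hspa8 on clathrin, was at 169, 154 and 155 CPM in the KO libraries, against 196, 170 and 181 CPM in the WT libraries. All KO values lay below all WT values, with KO replicate 1 next to WT replicate 2 (log2 fold change -0.20, SE 0.0781, edgeR adjusted p = 0.712). Dnajc5, the cysteine string protein of secretory vesicles, was at 166, 172 and 150 CPM in the KO libraries, against 143, 146 and 146 CPM in the WT libraries. Its KO values lay above the tightly grouped WT values (log2 fold change 0.17, SE 0.0730, edgeR adjusted p = 0.713). Dnajc14, a J protein of the endoplasmic reticulum membrane, was at 71.9, 76.8 and 70.4 CPM in the KO libraries, against 63.5, 67.0 and 66.8 CPM in the WT libraries. It was higher in every KO library and did not pass (log2 fold change 0.15, SE 0.0695, edgeR adjusted p = 0.717), and Sarnp overlaps it on the same strand.

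Most Bag proteins bind the ATPase part of Hsp70 and release its client. Bag3, the heat-inducible one, which leads clients to autophagy, was at 103, 89.0 and 91.3 CPM in the KO libraries, against 78.1, 92.1 and 90.4 CPM in the WT libraries. The groups overlapped (log2 fold change 0.12, SE 0.0887, edgeR adjusted p = 0.792). Hspbap1, named for its binding to Hsp27, was at 5.66, 5.77 and 5.96 CPM in the KO libraries, against 4.29, 3.88 and 4.93 CPM in the WT libraries. The KO values were all higher (log2 fold change 0.41, SE 0.172, edgeR adjusted p = 0.713), and exons of the predicted gene Gm26838 overlap it on the opposite strand. Bag2, a brake on the ubiquitin ligase CHIP, was at 5.98 ± 1.77 CPM in KO and 6.81 ± 0.873 CPM in WT (SD, n = 3 each; log2 fold change -0.18, SE 0.219). Of the 8 genes in this class 4 were positive and 4 negative.

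Small heat shock proteins, which hold unfolded proteins without ATP, were little expressed. Hspb1, the Hsp27 gene and a standard heat shock target, had 16, 17 and 21 counts in the KO libraries, against 15, 19 and 11 in the WT libraries. The groups overlapped, at 0.919 ± 0.105 CPM in KO and 0.757 ± 0.205 CPM in WT (SD, n = 3 each; log2 fold change 0.28, SE 0.369, edgeR adjusted p = 0.879). Hspb8, the Bag3 partner, was the highest of the class at 22.1, 13.4 and 27.6 CPM in the KO libraries, against 17.9, 25.2 and 21.7 CPM in the WT libraries. KO replicate 2 was lowest and KO replicate 3 highest (log2 fold change -0.04, SE 0.247, and 0.20 without KO replicate 2). Hspb11, also known as Ift25, is a ciliary transport protein and carries the symbol only by name. Hspb2, Hspb7 and Hspb9 had too few reads for the test and Hspb3 had none, as did Dnajb7, Dnajb8 and Dnajc5b. Dnajb3, Dnajb13, Dnajc5g and Dnajc6 were also too low.

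Chaperonins fold proteins inside a closed chamber. Hspd1 (Hsp60) and its lid Hspe1 (Hsp10) form the mitochondrial one. Hspd1 was at 254, 209 and 301 CPM in the KO libraries, against 297, 278 and 286 CPM in the WT libraries. KO replicates 1 and 2 lay below WT and KO replicate 3 above it (log2 fold change -0.17, SE 0.118, edgeR adjusted p = 0.785). Hspe1 followed the same order of KO libraries, with 65.2, 60.3 and 85.5 CPM in KO against 87.1, 80.1 and 74.9 CPM in WT (log2 fold change -0.20, SE 0.126, edgeR adjusted p = 0.778). Without KO replicate 2 the log2 fold changes were -0.05 for Hspd1 and -0.10 for Hspe1. Both genes start from 1 shared promoter region on opposite strands and overlap in the annotation.

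The cytosolic chaperonin TRiC, made of CCT subunits, folds actin and tubulin. Its 7 member genes had a median log2 fold change of -0.07, with 1 positive and 6 negative, and summed to 1461, 1434 and 1630 CPM in the KO libraries, against 1634, 1546 and 1550 CPM in the WT libraries. The sums overlapped. Cct6a (-0.14, SE 0.0899), Cct3 (-0.13, SE 0.0793) and Cct7 (-0.08, SE 0.0825) had the smallest p of the class, with edgeR adjusted p of 0.777, 0.754 and 0.843. Cct2 was the one positive subunit, at 0.04.

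Hsf1 encodes the master heat shock factor, which is held in check by chaperones and is controlled mainly after translation. Its RNA was at 38.5, 40.7 and 40.3 CPM in the KO libraries, against 36.4, 37.9 and 44.2 CPM in the WT libraries. The KO values lay inside the WT range (log2 fold change 0.01, SE 0.0897, edgeR adjusted p = 0.977). Hsf2, a related factor that can pair with HSF1, was at 12.5 ± 1.04 CPM in KO and 12.9 ± 0.379 CPM in WT (SD, n = 3 each; log2 fold change -0.05, SE 0.114, edgeR adjusted p = 0.933).

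**Figure D3:**
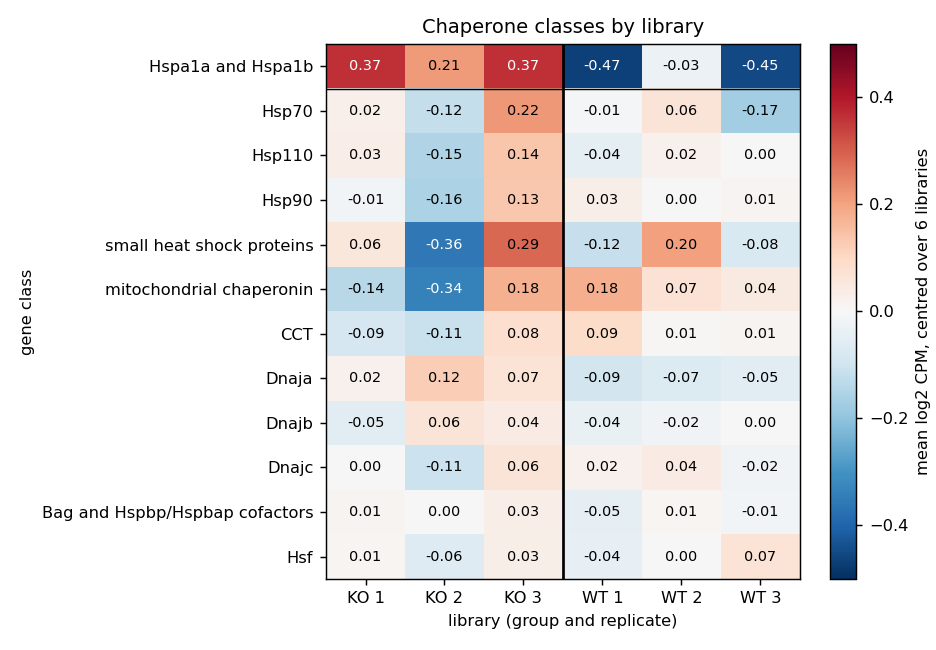
Mean log2 CPM of the tested genes in each class, centred over the 6 libraries, for KO replicates 1 to 3 (left) and WT replicates 1 to 3 (right). The top row gives Hspa1a and Hspa1b, which also count in the Hsp70 row of 10 genes. The top row is positive in all KO libraries and negative in all WT libraries, and most other rows are below 0 in KO replicate 2.

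For most members the KO libraries stood farther apart than the WT libraries. KO replicate 2 had the lowest value of the 6 libraries in 27 of 74 members (36.5%), where it had the lowest in 20.6% of all genes tested. KO replicate 3 had the highest value in 25 members (33.8%), against 15.1% of all genes. Mitochondrial chaperonin genes summed to 319, 270 and 387 CPM in the KO libraries, against 385, 358 and 361 CPM in the WT libraries. All 85 members together made 1.08%, 1.02% and 1.18% of the counts in the KO libraries, against 1.13%, 1.07% and 1.11% in the WT libraries. The SD of log2 CPM was larger in KO than in WT for 49 of the 74 members (66.2%) and for 59.3% of all genes.

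Levels differed far more between genes than between groups. Per kb of exon, Hsp90ab1 was highest at 715 ± 91.0 CPM in KO and 741 ± 11.04 CPM in WT, and Hspa8 followed at 573 ± 55.1 CPM in KO and 588 ± 30.7 CPM in WT (SD, n = 3 each). Hsp90aa1 came next with 130 CPM per kb in KO and 129 in WT. Cct2, Hspa9, Hspd1, Cct5 and Bag1, from 90.1 to 110 CPM per kb in KO and from 92.8 to 109 in WT, followed. In KO, Cct2 (109.8 ± 2.85) and Bag1 (90.12 ± 3.50) lay apart by more than their SDs, and Hspd1 (96.5 ± 17.4) spread over that range. Hspa1b stood at 61.8 ± 8.23 CPM per kb in KO and 40.1 ± 7.90 in WT, and Hspa1a at 53.5 ± 2.16 in KO and 34.8 ± 5.85 in WT. Both lay below Hspa8 and within the range of the CCT subunits (28.5 to 110 in KO, 31.3 to 107 in WT). That range depends on the exon lengths, which join all annotated exons and ran from 2557 bases for Cct2 to 6778 for Cct7. Without division by length, the CCT subunits had means of 166 to 277 CPM over all 6 libraries, against 131 for Hspa1a and 143 for Hspa1b. Unscaled for length, Hspa8 and Hsp90ab1 held 42.58% of the CPM of all members.

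**Figure D4:**
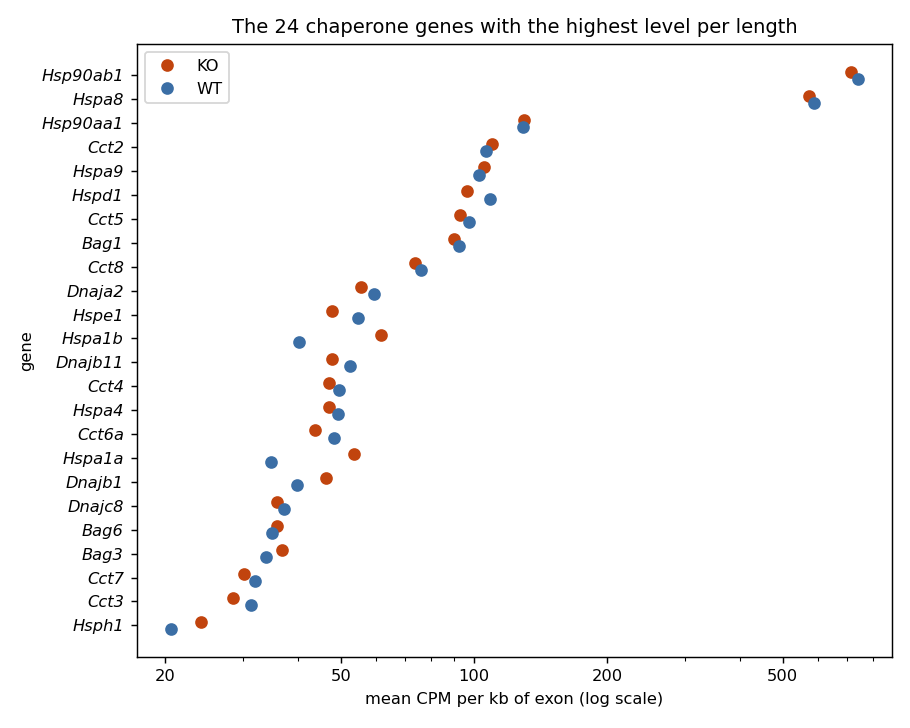
Mean CPM per kb of exon, on a log axis, of the 24 members with the highest level, KO above WT in each row. Hsp90ab1 and Hspa8 stand apart at the top, and Hspa1b and Hspa1a show the widest gaps between KO and WT.

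Promoters of the members were searched for the heat shock element pattern in the 250 bases before the start, on both strands, with the letters GAANNTTC and TTCNNGAA, each of which is its own reverse complement. A gene could have several windows, and it counted if any of them held the pattern. RefSeq windows on GRCm38.p6 matched 68 of the 85 members, and 16 of them held the pattern (23.5%), against 14.55% of all genes with a window and 12.25% of those tested. Hspa8, Hspa9, Hsp90aa1, Hsp90ab1 and Hsf1 were among the members without a window and were not searched. The heat-inducible Dnajb1 and Bag3 were searched and held no match. An extended form of 3 alternating units, in which a match to one pattern shares its last 3 bases with a match to the other, was found in Dnajb6, Hspd1 and Hspe1 (4.41%), against 0.514% of all genes. Hspd1 and Hspe1 share 1 promoter region, so their matches need not be separate. The 30 bases around the matches of 4 members that the results name are given with the pattern in capitals, for Hsph1 (chr5:149636351-149636380, minus strand), Dnaja4 (chr9:54699496-54699525, plus strand), Hspe1 (chr1:55088055-55088084, plus strand) and Dnajb6 (chr5:29735843-29735872, plus strand). The first pair holds 1 short match each, and the other pair the extended form, which runs on to 4 units in Hspe1. Hsph1, Dnaja4 and Dnajb6 have 2 windows each, and the matches shown for them lie inside their GENCODE gene bounds.

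Hsph1: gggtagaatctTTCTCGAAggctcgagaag

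Dnaja4: gcctcctggcgGAACCTTCcgccggcgccg

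Hspe1: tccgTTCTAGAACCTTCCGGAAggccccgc

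Dnajb6: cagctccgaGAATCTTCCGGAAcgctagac

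Members with and without the pattern overlapped in their fold changes. Of the 15 tested members with it 9 were positive, with a median log2 fold change of 0.04. Of the 44 tested members with a window and no match 11 were positive, with a median of -0.06. Hspa1a and Hspa1b, whose windows are near-identical, count separately among the 9. Over all tested genes with a window, 564 of 1149 with the pattern and 4097 of 8232 without it were positive. Their medians were -0.0037 with the pattern and -0.00098 without. Members with the short form alone had log2 fold changes of either sign, from -0.08 for Dnajc10 and -0.07 for Cct5 to 0.75 for Dnaja4. Those with the extended form, Dnajb6, Hspd1 and Hspe1, were all negative, at -0.06, -0.17 and -0.20. A match is a description of the letters and not a shown binding site.

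No partner gene outside the members passed the test either. Of 28 Hsp70 and Hsp90 co-chaperones and chaperonin partners, 11 were positive and 17 negative, with a median of -0.03, and 0 passed with edgeR or DESeq2, or at an unadjusted edgeR p under 0.05. Stip1, which joins Hsp70 to Hsp90, was at 128 CPM in KO and 149 CPM in WT (log2 fold change -0.22, SE 0.105, edgeR adjusted p = 0.722). Fkbp4, an Hsp90 cofactor for steroid receptors, was at 117 CPM in KO and 135 CPM in WT (-0.21, SE 0.107). Unc45a, a myosin chaperone, and Ttc4, an Hsp90 partner, had log2 fold changes of 0.28 (SE 0.132) and 0.19 (SE 0.103). The Unc45a value was 0.12 without KO replicate 2. The 4 endoplasmic reticulum chaperones left out by name ranged from -0.18 for Hsp90b1 through -0.12 for Dnajc3 and -0.01 for Hspa5 to 0.29 for Dnajb9 (SE 0.0766, edgeR adjusted p = 0.695).

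Of 14 further heat-responsive genes that are not members, 6 were positive and 8 negative, with a median of -0.04. With edgeR or DESeq2 0 passed, and DESeq2 gave no adjusted p for Cryab. At an unadjusted edgeR p under 0.05, 3 were higher in KO, where 3.86% of all genes were. These 3 were Jun (0.39, SE 0.106), Rgs2 (0.37, SE 0.129) and Fos (0.27, SE 0.0920), which also respond to many other stimuli. The Hsp90 cofactors Stip1, Fkbp4, Chordc1 and Ahsa1, which are also in the list of co-chaperones, were all negative, from -0.22 to -0.09. Immediate early genes, switched on quickly by signals and by handling of cells, were positive in 20 of 22, where 49.8% of all genes were, with a median log2 fold change of 0.18. Again 0 passed with edgeR or DESeq2, and 8 of 22 were higher in KO at an unadjusted edgeR p under 0.05, against 3.86% of all genes. Klf2 (0.47, SE 0.142), Ier5 (0.21, SE 0.0785) and the shared genes Jun and Fos had the smallest p. Their sum was 15827, 18417 and 16474 CPM in the KO libraries, against 12449, 16153 and 14247 CPM in the WT libraries. KO replicate 1 lay below WT replicate 2, which was the highest WT library here as for Hspa1a and Hspa1b. The part of these genes in the Hspa1a and Hspa1b values was not tested.

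**Figure D5:**
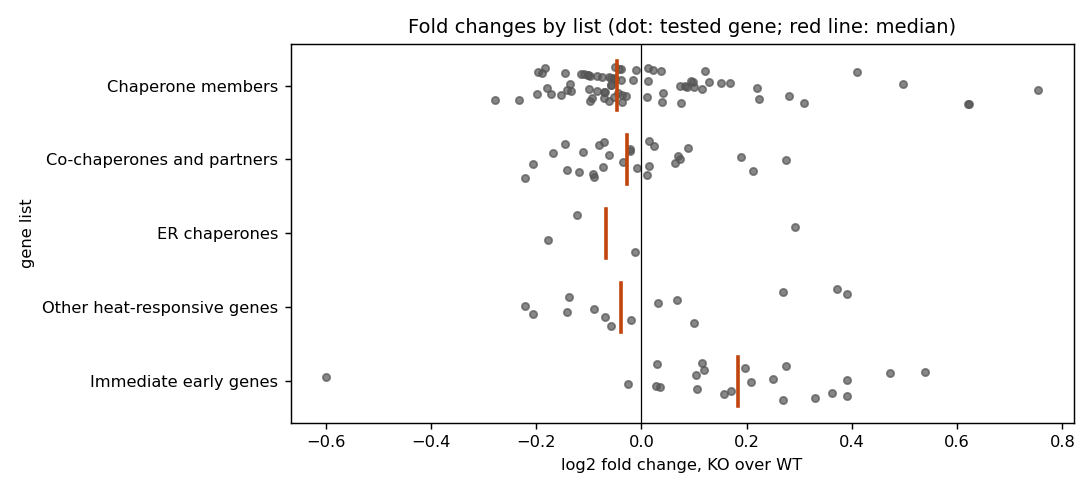
Log2 fold change (KO over WT) of each tested gene by list, with the median as a red line. Chaperone members, co-chaperones, endoplasmic reticulum chaperones and other heat-responsive genes centre near 0, and immediate early genes centre at 0.18.

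Markers of other cells were also compared between the groups. The 14 neutrophil markers summed to 183, 149 and 133 CPM in the KO libraries, against 120, 85.8 and 97.9 CPM in the WT libraries, without overlap. Of the 8 tested ones 7 were positive, with a median log2 fold change of 0.84, and 4 were higher in KO at an unadjusted edgeR p under 0.05 (3.86% of all genes were), although 0 passed with edgeR or DESeq2. DESeq2 gave no adjusted p for S100a9, Ltf, Retnlg and Lcn2, so these could not pass it. Ltf (1.87, SE 0.487; under 2 CPM in every library) and Mmp8 (0.55, SE 0.190) were higher in every KO library than in any WT library. Without Mmp9, a protease that macrophages also make, the sums were 57.3, 102 and 68.3 CPM in KO, against 72.6, 55.1 and 57.7 CPM in WT, and they overlapped. Ly6g, which defines neutrophils, was at 0 in 5 of the 6 libraries and at 0.148 CPM in KO replicate 3. The 16 T and NK cell markers in the table summed to 34.3, 90.1 and 45.5 CPM in the KO libraries, against 37.5, 35.9 and 53.4 CPM in the WT libraries, with KO replicate 2 highest. Of the 15 tested ones 14 were positive, with a median log2 fold change of 0.35, and 2 were higher in KO at an unadjusted edgeR p under 0.05, with 0 past the test. The 8 epithelial markers summed to 112 to 134 CPM in KO and 77.0 to 141 CPM in WT, nearly all of it Cdh1, with Cldn4 and Cdx2 at 0. B and plasma cell markers (1.04 to 2.73 CPM in KO, 1.46 to 1.89 CPM in WT), dendritic cell markers (77.4 to 89.2 CPM in KO, 70.2 to 95.3 CPM in WT), fibroblast markers (209 to 305 CPM in KO, 210.2 to 330 CPM in WT) and endothelial markers (65.1 to 88.7 CPM in KO, 61.2 to 72.0 CPM in WT) overlapped too. The part of any of these markers in the chaperone values was not tested.

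The tested genes outside the members whose log2 CPM followed Hspa1a most closely over the 6 libraries were Frat2 (Pearson r = 0.994), Sepn1 (0.991), Kifc2 (0.988), Sdr42e1 (0.984) and Atf7ip (0.981). They are the 5 highest of all tested genes, and with 6 libraries in 2 groups such values are a description only. Their log2 fold changes ran from 0.14 for Sepn1 to 0.67 for Kifc2.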

How the data were processed

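Bulk mRNA was sequenced from 3 KO and 3 WT libraries, made with a stranded TruSeq mRNA kit per the labels. The table deposited by the authors holds whole-number read counts for each gene. The submitters' processing notes name Trimmomatic, HISAT2, Cufflinks, HTSeq and mm10 and give no versions. Annotation, strand setting and treatment of multi-mapping reads are not given in the sources used here. Overlapping genes (9 members share exons with another gene on the same strand, 29 on the opposite strand) and near-identical copies are uncertain for that reason.

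From the counts, edgeR 4.0.16 in R 4.3.3 was run on a model of genotype alone, after filterByExpr (minimum count 10, minimum total 15; 12136 genes, 99.96% of reads), TMM factors and robust shrinkage. P-values were adjusted by Benjamini-Hochberg over all tested genes. The script was tested on simulated data. DESeq2 1.42.0 and limma 3.58.1 (voom, with and without quality weights) were alternatives, with other scalings and filters, the replicate number as a block and each library left out in turn. Log2 CPM used a prior count of 2. CPM per kb used the union of exons in GENCODE M21.

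Members and gene lists were chosen with earlier results of these data known. Named with a test were 14 fixed members, up to 3 members of smallest p in each class and up to 4 genes of smallest p in each other list. No 2 libraries agreed within sampling noise (chi-square per degree of freedom at least 7.94).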

Additional observations from a re-analysis of the deposited data

How the results depend on the processing

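The number of genes called over all genes was 2, and it was 1 with RLE factors, upper-quartile factors, library totals alone, no filter, limma-voom or the replicate block, 0 with a mean of at least 1 CPM, 27 with DESeq2, 4 with limma-voom with quality weights, and 0 to 5 with 1 library left out, the 5 being without KO replicate 2. Members called higher in KO numbered 0, but 2 with DESeq2 and 0 to 1 with 1 library left out, the 1 being Hspa1a without WT replicate 2. Members called lower numbered 0 in all alternatives run. Hspa1a and Hspa1b added together, an alternative chosen after seeing the data, passed with DESeq2 (log2 0.62) and ran from 0.55 to 0.79 with 1 library left out, the top value without WT replicate 2 (edgeR adjusted p = 0.0520). Same-numbered KO and WT libraries did not deviate together (r = -0.057, -0.094 and -0.109), where the other KO and WT pairs had r from 0.015 to 0.080. With 3 libraries in each group, this cannot decide whether the numbers pair the samples. Under the replicate block 1 gene was called and the median of the members was -0.05. That median ran from -0.07 to -0.02 with 1 library left out, that last value without KO replicate 2. Hsf1 reversed with quality weights (-0.044). With 1 library left out, log2 fold changes ran from -0.109 to 0.027 for Hspa8, -0.036 to 0.074 for Hsp90aa1, -0.153 to 0.025 for Hsp90ab1, -0.041 to 0.10 for Hsf1, -0.092 to 0.017 for Hsf2, -0.19 to 0.0013 for Hspa4l, -0.31 to 0.0050 for Hspb11, -0.28 to 0.20 for Hspb8 and -0.050 to 0.066 for Hspa5. In all, 60 of the 74 members moved by over 1.5 times with some library left out, Hspa1a and Hspa1b not among them. The causes were not tested. The call on Trmt61a was lost in 8 alternatives, among them each left-out library other than KO replicate 2, and its values over all alternatives ran from -1.94 to -1.69. Tested members under 1 CPM rest on few reads, and their intervals reach past a 2-fold change.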
